A study of Mus musculus with 18 samples.

Results

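CD8 T cells that carried 41BB in the animal and were taken straight from the sort were compared with conventional CD8 T cells that had been activated for 24 h in a dish. 41BB (CD137, gene Tnfrsf9) is a receptor of the TNF family that T cells put on their surface after activation and that then costimulates them. The 3 unstimulated 41BB+ libraries (0 h, no activation) and the 3 libraries of 41BB- cells cultured for 24 h with CD3/CD28 antibody beads make up 6 of the 18 libraries of the series. All cells were CD8+ T cells sorted from spleen and lymph nodes of wild-type C57BL/6J mice, the 41BB+ cells being called Tpam by the submitters. Every gene with a position on an autosome that passed the filter on low counts entered, which was 12686 of 50957 autosomal gene IDs, out of 55487 counted genes in all, and the other 38271 autosomal IDs were not tested. The comparison addresses how far the state of the 41BB+ cells in the animal matches that of bead-activated conventional cells. The 2 groups differ in the sorted population and in 24 h of culture with beads at once, so these cannot be told apart. The design names biological triplicates, and whether each was 1 mouse or a pool is not stated in any source used here, so p-values measure the spread between these libraries. Unstimulated 41BB- libraries (0 h, 3) are given as the resting reference where a value needs one.

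A resting CD8 T cell is small and makes little new RNA or protein. Engagement of its antigen receptor and CD28 first induces early response genes, cytokines and the interleukin-2 receptor, then a growth phase in which ribosomes, metabolic enzymes and chaperones are built, and after that DNA replication and mitosis. Resting T cells also express a set of genes, for homing receptors, GIMAP GTPases and survival receptors among others, that activation lowers.

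The 6 libraries held 3133910 to 4229487 counts, with 16503 to 22816 genes detected. Mitochondrial transcripts took 8.73 ± 0.03% of the counts in unstimulated 41BB+ cells and 6.54 ± 0.33% in activated 41BB- cells (SD, n = 3 each). Cytosolic ribosomal protein genes took 5.10 ± 0.25% and 4.25 ± 0.54%. The 2 groups did not overlap in either share, with a two-sided exact permutation p of 0.1 for each, the smallest that 3 against 3 allows, and the part of these shares in the results below was not tested. Levels are counts per 1e+06 counts of the library (CPM), and they compare libraries for 1 gene, not genes with each other. Fold changes are log2 ratios, unstimulated 41BB+ over activated 41BB-, with their standard errors (±), and an adjusted p is that of edgeR's quasi-likelihood test with Benjamini-Hochberg adjustment at a threshold of 0.05. In bulk libraries, fewer cells that express a gene and less RNA per cell cannot be told apart.

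The labels were checked first. Tnfrsf9 (ENSMUSG00000028965, GRCm38 chr4:150914562-150946102), the gene of the sorting marker, stood at 373, 421 and 374 CPM in the 3 unstimulated 41BB+ libraries. It stood at 172, 184 and 194 CPM in the activated 41BB- libraries, and at 4.96, 6.81 and 8.45 CPM in unstimulated 41BB- cells. Every 41BB+ library was thus above every activated 41BB- library, and these in turn were far above the resting cells (log2 fold change 1.15 ± 0.19, adjusted p = 8.11e-05 for the unstimulated 41BB+ against the activated 41BB- cells). Cd8a, the alpha chain of the CD8 coreceptor, was at 462, 579.9 and 478 CPM and 512, 507 and 498 CPM (log2 fold change 0.07 ± 0.12, adjusted p = 0.716), and the ranges overlapped. Cd8b1, the beta chain, was at 359.9, 414 and 422 CPM against 319.7, 328 and 313 CPM (log2 fold change 0.38 ± 0.14, adjusted p = 0.0453), a call that was lost when any 1 of the 6 libraries was left out. With all 6 it was also lost under DESeq2 (adjusted p = 0.0506), RLE scaling (0.052) and library totals alone (0.0923). The same held with no filter on low counts (0.0832) and without mitochondrial, ribosomal protein and Gm23935 counts (0.0893).

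Of the 12686 genes, 3186 (25.1%) differed between unstimulated 41BB+ and activated 41BB- cells, 1490 (11.7%) being higher and 1696 (13.4%) lower in the 41BB+ cells. Leaving out replicate 1 of the activated 41BB- cells lowered the count of higher genes to 916, and leaving out replicate 2 lowered it to 931. A difference past 2-fold, by a test against that size (glmTreat), was found for 147 higher genes (1.16%) and 378 lower genes (2.98%). For 6277 genes (49.5%) the 95% interval of the log2 fold change lay wholly within 2-fold in either direction, so a difference of that size was not found in them at this depth. The remaining 5884 genes (46.4%) had wider or shifted intervals and were placed on neither side. The median log2 fold change was 0.05, with the 5th and 95th percentiles at -1.37 and 1.76. In the same fit, 5046 genes (39.8%) differed between unstimulated 41BB+ and unstimulated 41BB- cells, and 7208 (56.8%) between activated and unstimulated 41BB- cells.

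**Figure D1:**
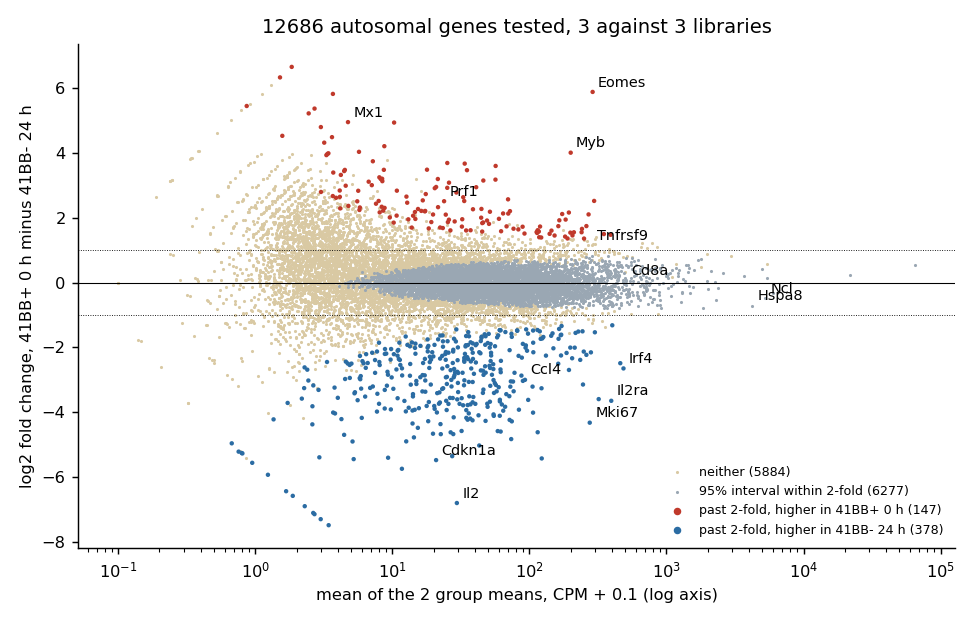
Log2 fold change of unstimulated 41BB+ over 24 h activated 41BB- cells (vertical) against the mean CPM of the 2 groups (horizontal, log axis) for 12686 autosomal genes. Red and blue points are the 147 and 378 genes past 2-fold by glmTreat, grey ones the 6277 genes whose 95% interval lies within 2-fold, dotted lines mark 2-fold, and genes with 0 counts in 1 group stand at fitted values that depend on the prior count.

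The distance between 2 libraries was taken as the root mean square log2 difference over all 12686 genes. Unstimulated 41BB+ libraries lay 1.00 from activated 41BB- libraries on average (0.926 to 1.12 over 9 pairs) and 1.05 from unstimulated 41BB- libraries (0.992 to 1.09), so over all genes they were about equally far from both, and the 2 ranges overlapped. Replicates of 1 group were 0.608 to 0.643 apart on average, and activated and unstimulated 41BB- libraries were 1.48 apart. Over the 2000 genes of highest mean level the picture was different. There the unstimulated 41BB+ libraries lay 0.620 from activated 41BB- libraries (0.580 to 0.648) and 0.896 from unstimulated 41BB- libraries (0.829 to 0.957), with no overlap of the ranges, against 1.25 between the 41BB- cells of 24 h and 0 h and 0.208 to 0.245 within groups. These distances share libraries and are given as a description with no test.

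**Figure D2:**
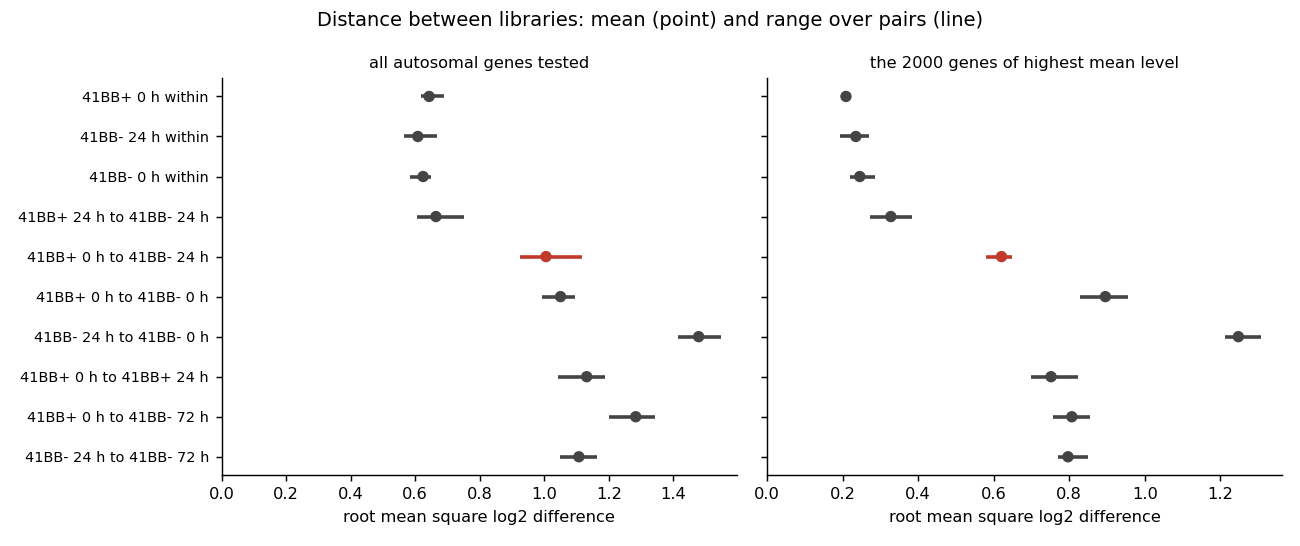
Root mean square log2 difference between pairs of libraries, as the mean (point) and range (line) over 9 pairs between groups or 3 within a group, over all 12686 autosomal genes (left) and the 2000 of highest mean level (right). In red, unstimulated 41BB+ against 24 h activated 41BB- libraries, at a mean of 1.00 on the left and 0.620 on the right.

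Most genes of the growth programme had intervals within 2-fold, yet in most of its lists more were lower than higher in the 41BB+ cells. Ribosome biogenesis factors, which make and process ribosomal RNA, had no member past 2-fold among 49 tested: 45 had their interval within 2-fold, 9 were lower and none was higher in the 41BB+ cells, and the median log2 fold change was -0.24. Against unstimulated 41BB- cells, the list had a median of 1.65 in unstimulated 41BB+ and 1.89 in activated 41BB- cells. Its summed level was 15130 to 16360 CPM in the 41BB+ and 20820 to 21220 CPM in the activated libraries, with no overlap. The count of lower members was 20 with no filter on low counts, 22 with the 6 libraries fitted alone, 18 with limma voom and 14 without mitochondrial and ribosomal protein counts. Ddx21, a nucleolar helicase, was at 985, 942 and 910.3 CPM in the 41BB+ cells and at 1110, 1083 and 1099 CPM in the activated cells, against 247, 267 and 272 CPM at rest (log2 fold change -0.15 ± 0.11, adjusted p = 0.316). The activated cells were slightly above in each library, and the interval of -0.32 to 0.02 lay within 2-fold. Ncl, encoding nucleolin, was called as lower at 4389, 4339 and 4130 CPM against 6198, 6384 and 6075 CPM, with 818 to 854 CPM at rest (log2 fold change -0.47 ± 0.08, adjusted p = 5.56e-05), and was also within 2-fold.

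Nuclear genes of oxidative phosphorylation were close in level. Of 46 tested, 44 had intervals within 2-fold, none was higher and 2 were lower (1 without replicate 1 of the 41BB+ cells), with a median of -0.03, while the medians against rest were 0.92 in unstimulated 41BB+ and 0.91 in activated 41BB- cells. Uqcrc1, a core subunit of complex III, was at 138, 143 and 151 CPM and 142, 131 and 179 CPM, with a log2 fold change of 0.00 (interval -0.24 to 0.27), and overlapped between the groups. Proteasome subunits had 35 of 37 within 2-fold, 12 lower and 2 higher. The 2 higher members were Psmb8 and Psmb10, which are subunits of the immunoproteasome, with log2 fold changes of 0.95, adjusted p = 1.1e-06 and 0.97, adjusted p = 0.000613. Heat shock proteins and chaperonins had 29 of 36 within 2-fold and 17 lower, none higher, as for Hspa8 at 3125, 3389 and 2785 CPM against 5296, 4974 and 5667 CPM (log2 fold change -0.71 ± 0.09, adjusted p = 2.69e-07). Hspd1, the mitochondrial chaperonin, was lower by more, at 622, 561 and 528 CPM against 1147, 1172 and 1194 CPM with 73.8 to 95.3 CPM at rest (log2 fold change -0.98 ± 0.11, adjusted p = 3.82e-08).

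Translation factors had 31 of 34 within 2-fold, with 16 lower and 1 higher. Cytosolic ribosomal protein genes went the other way, with 30 of 57 higher, none lower and 54 within 2-fold, at a median of 0.36, beside the larger share of ribosomal protein counts given above. The count of higher members was 15 without 41BB+ replicate 2, 17 without 41BB+ replicate 3, 18 without activated replicate 1 and 8 without activated replicate 2. Transfer RNA synthetases and ATF4 targets had 22 of 32 within 2-fold and 9 lower. Asns, asparagine synthetase, was among the lower ones at 2.36, 1.43 and 3.68 CPM against 11.8, 9.46 and 14.5 CPM (log2 fold change -2.16 ± 0.54, adjusted p = 0.00383).

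Myc, a transcription factor gene that drives this growth phase, was at 308, 304 and 266 CPM in unstimulated 41BB+ cells. It was at 351, 388 and 372 CPM in activated 41BB- cells and at 107, 96.3 and 97.4 CPM at rest. The activated cells were above in each library, yet the difference was small (log2 fold change -0.28 ± 0.12, interval -0.48 to -0.09) and did not pass the threshold (adjusted p = 0.0791), which it did with DESeq2 (0.0287) and in 7 other settings.

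Genes of polyamine synthesis, breakdown and control were in part lower than in the activated cells. Their medians against rest were 0.53 in unstimulated 41BB+ and 1.05 in activated 41BB- cells. Of 15 tested, 6 were lower, none was higher and 8 had intervals within 2-fold, and the median log2 fold change was -0.36 (-0.63 without 41BB+ replicate 1). Odc1, ornithine decarboxylase, which commits ornithine to polyamine synthesis, stood at 288, 304 and 258 CPM in the 41BB+ libraries, 519, 537 and 565 CPM in the activated libraries and 64.8, 124 and 49.2 CPM at rest. All 3 activated libraries were above all 3 41BB+ libraries (log2 fold change -0.87 ± 0.23, adjusted p = 0.0127). Srm, spermidine synthase, was at 135, 176 and 119 CPM against 229.7, 228 and 259 CPM and 10.2, 21.4 and 19 CPM at rest, and its difference from the activated cells just missed the threshold (log2 fold change -0.67 ± 0.24, adjusted p = 0.0542), which 8 of 15 alternative settings passed. Amd1, which makes the aminopropyl donor, was at 68.04, 58.6 and 52.9 CPM against 105, 116 and 108 CPM (log2 fold change -0.81 ± 0.19, adjusted p = 0.00169), and reads shared with its close copy Amd2 make both values uncertain.

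Carbon metabolism was lower in part. Of 25 glycolysis genes 10 were lower, 3 higher and 10 within 2-fold, with a median of -0.39. Hk2, the inducible hexokinase, was at 55.7, 60.6 and 58.6 CPM against 145, 169.5 and 169.6 CPM, with 3.56 to 5.73 CPM at rest (log2 fold change -1.40 ± 0.23, adjusted p = 0.000132), whereas Ldha and Pkm were lower by less than 2-fold (-0.70 and -0.50, adjusted p = 6.52e-05 and 0.00153). Genes of serine, folate and nucleotide synthesis differed in size of change. Shmt2, which moves serine carbon into folate, was at 339, 349 and 348 CPM and 341, 313 and 339.7 CPM with an interval of -0.14 to 0.40, while Tyms, which makes thymidylate for DNA, was at 8.54, 6.87 and 8.94 CPM against 90.3, 74.95 and 86.9 CPM (log2 fold change -3.30 ± 0.23, adjusted p = 8.14e-12). Psat1, an enzyme of serine synthesis, was lower at 83.1, 92.4 and 94.2 CPM against 200.1, 176 and 179 CPM (log2 fold change -0.98 ± 0.14, adjusted p = 4.61e-06). Over that list 15 of 30 were lower and 22 within 2-fold, and 2 were higher (1 in each fit without 1 library). Enzymes of the TCA cycle and its entry had 12 of 30 lower, none higher and 22 within 2-fold. The shares over all genes tested are 13.4% lower, 11.7% higher and 49.5% within 2-fold, and they are the reference for the counts of each list. Intervals tend to be narrower for genes with more counts. The part of expression level in the share of a list within 2-fold was not tested.

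**Figure D3:**
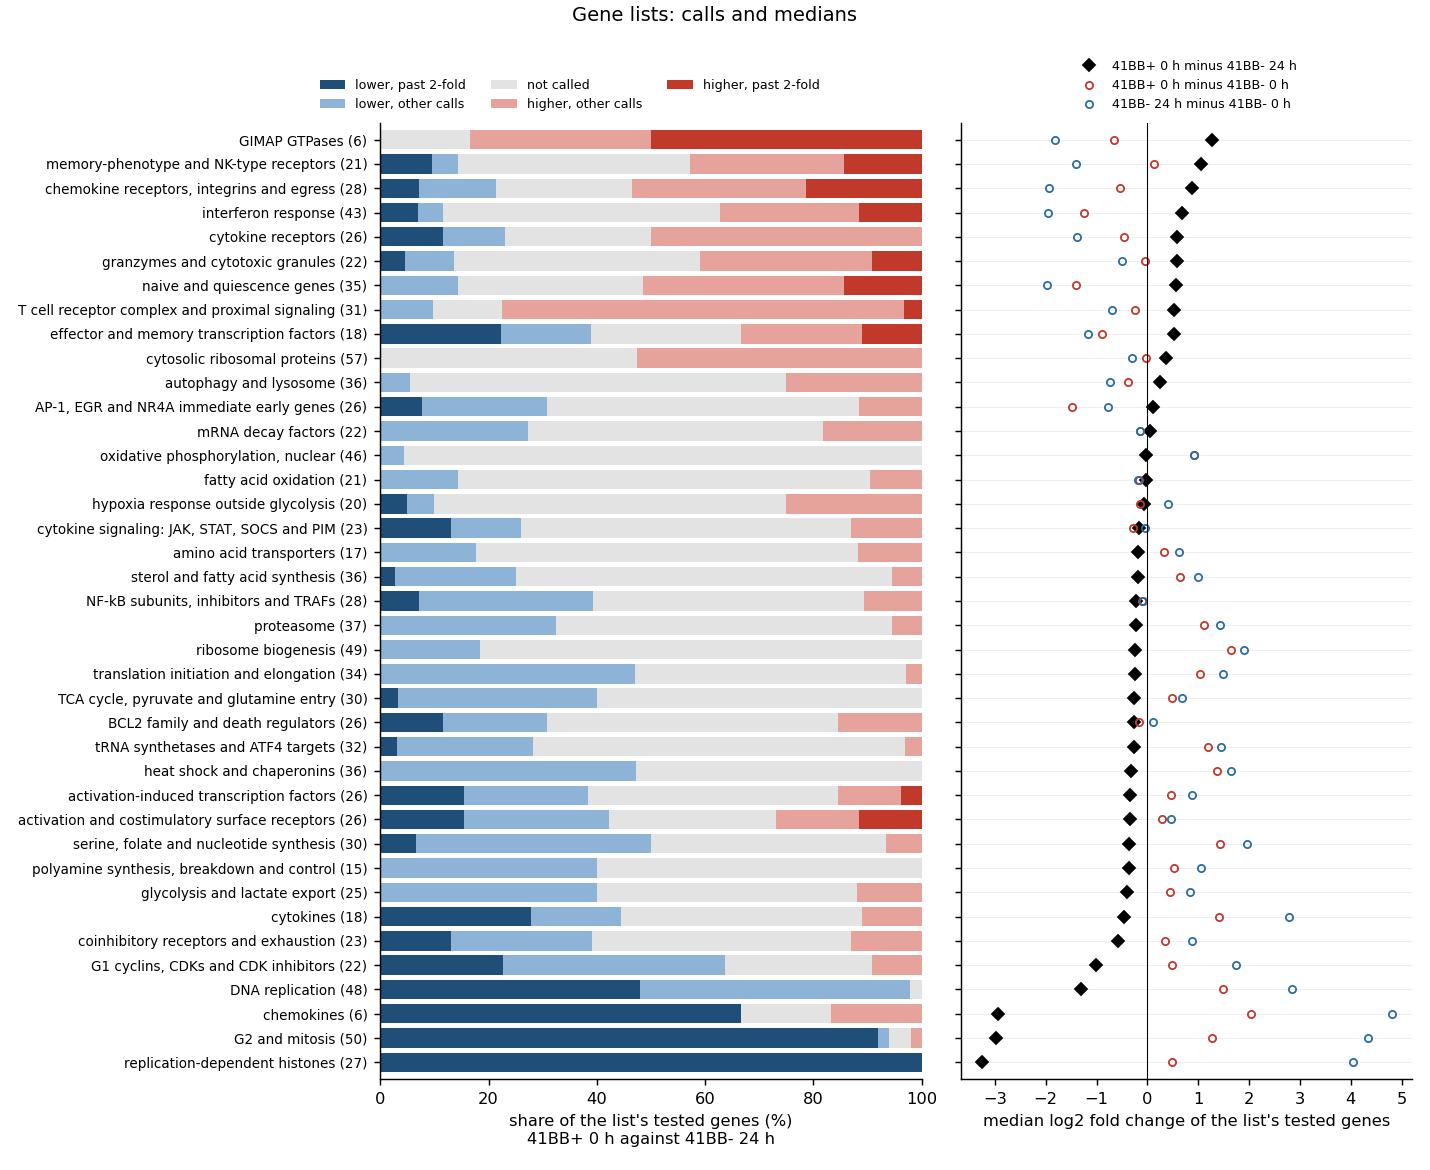
Left, the share of each gene list's tested members that were lower (blue) or higher (red) in unstimulated 41BB+ than in 24 h activated 41BB- cells, dark where past 2-fold, with the number tested in parentheses. Right, the median log2 fold change of each list for that comparison and for both groups against unstimulated 41BB- cells, which share those libraries, with oxidative phosphorylation at -0.03 beside 0.92 and 0.91, and G2 and mitosis at -2.97 beside 1.28 and 4.34.

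Genes of cell division were lower in the 41BB+ cells nearly throughout. All 27 replication-dependent histone genes tested were lower in the 41BB+ cells and past 2-fold, with a median of -3.26, and 47 of 50 genes of G2 and mitosis were lower, 46 of them past 2-fold, with a median of -2.97. Of 48 DNA replication genes 47 were lower, 23 past 2-fold, with a median of -1.30. Against unstimulated 41BB- cells, unstimulated 41BB+ cells had a median of 1.48 for replication, with 40 genes up, and 1.28 for mitosis, with 27 up and 4 down. For histones the median was 0.48, but only 4 genes were called up and 1 down. Summed histone levels were 482 to 638 CPM in 41BB+ and 789 to 949.8 CPM in resting libraries. The activated cells had medians against rest of 4.04 for histones, 4.34 for mitosis and 2.84 for replication.

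The promoters of the mitosis genes share a sequence feature, shown because these genes moved together. The cell cycle genes homology region (CHR, letters TTTGAA on either strand) is a known element of late cell cycle promoters. In RefSeq promoter windows on GRCm38.p6, from 250 bases before to 50 after the first listed start, it was present in 30 of the 43 tested mitosis genes with an entry (69.8%), in 5 of 39 DNA replication genes (12.8%), and in 1083 of 8912 tested autosomal genes (12.2%). A CCAAT box (CCAAT, either strand) was in 30, 25 and 3479 of the same windows, and an E2F-type core (TTNGCGC, either strand) in 10, 11 and 1039 of them. A match is a description of the letters and not a test of binding. The windows of Cdc20 (chr4:118437294-118437593, minus strand) and Ube2c (chr2:164769679-164769978, plus strand), an activator and the ubiquitin-conjugating enzyme of the anaphase-promoting complex, are printed 5′ to 3′ with the CHR in capitals. It begins 18 bases before the start in Cdc20 and 29 bases before it in Ube2c, where it lies on the other strand.
Cdc20: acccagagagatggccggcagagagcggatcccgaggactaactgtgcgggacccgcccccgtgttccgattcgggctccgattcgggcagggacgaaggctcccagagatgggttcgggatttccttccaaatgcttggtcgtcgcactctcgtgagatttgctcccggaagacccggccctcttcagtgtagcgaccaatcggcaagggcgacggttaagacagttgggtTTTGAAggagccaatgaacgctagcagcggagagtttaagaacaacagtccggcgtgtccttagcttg
Ube2c: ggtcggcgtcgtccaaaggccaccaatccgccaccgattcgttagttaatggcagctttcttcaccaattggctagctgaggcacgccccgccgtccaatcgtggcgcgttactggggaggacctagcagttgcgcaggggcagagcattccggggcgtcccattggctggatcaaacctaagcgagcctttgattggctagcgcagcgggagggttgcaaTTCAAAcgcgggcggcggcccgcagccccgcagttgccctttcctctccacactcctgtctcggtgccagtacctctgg

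Ube2c was at 1.77, 0.858 and 1.05 CPM in unstimulated 41BB+ cells and 32.2, 24.4 and 31.2 CPM in activated 41BB- cells, with 0.603 to 1.30 CPM at rest (log2 fold change -4.48 ± 0.30, adjusted p = 4.4e-12). Cdc20 was at 6.78, 6.01 and 4.47 CPM against 21.4, 16.6 and 19.3 CPM, with 2.17 to 4.21 CPM at rest (log2 fold change -1.66 ± 0.25, adjusted p = 1.07e-05). Ccna2, cyclin A2, was at 4.12, 3.43 and 6.31 CPM against 116, 124 and 116 CPM, with 0 to 0.93 CPM at rest (log2 fold change -4.59 ± 0.20, adjusted p = 8.61e-16). For these 3 genes every activated library stood above every 41BB+ library. Mki67, the gene of the proliferation marker Ki-67, was at 25.6, 14.3 and 35.2 CPM against 539, 631 and 408 CPM, with 10.5, 4.86 and 12.4 CPM in the 3 resting libraries (log2 fold change -4.32 ± 0.28, adjusted p = 2.12e-08). The 41BB+ libraries were all above the resting libraries here, and far below every activated library.

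Mcm2 and Mcm6, subunits of the replicative helicase, were lower with log2 fold changes of -0.56 and -0.62 and intervals within 2-fold, Mcm2 being at 253, 227 and 209 CPM against 378, 327 and 353 CPM and 41.3 to 51.5 CPM at rest. Pcna, the sliding clamp, was at 188, 161 and 147 CPM against 407, 389 and 424 CPM (log2 fold change -1.24 ± 0.14, adjusted p = 9.79e-08). Rrm2, the ribonucleotide reductase subunit that S phase cells make, was at 7.95, 8.58 and 9.21 CPM against 230.1, 222 and 211 CPM, with 0.93 to 3.56 CPM at rest (log2 fold change -4.62 ± 0.17, adjusted p = 1.8e-17). The Mcm2 level in 41BB+ cells was thus nearer to the activated level and that of Rrm2 nearer to rest.

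The exceptions were few. Smc4, a condensin subunit, was the 1 mitosis gene higher in the 41BB+ cells, at 685, 732 and 701 CPM against 512, 558 and 439 CPM (log2 fold change 0.55 ± 0.10, adjusted p = 6.4e-05), and Cdc25b and Pttg1 were not called. Rpa3 was the 1 replication gene not called. Among G1 cyclins, cyclin-dependent kinases and their inhibitors 14 of 22 were lower and 2 higher. Ccne2, cyclin E2, was at 2.36, 3.15 and 0.526 CPM against 37.3, 50.4 and 72.7 CPM (log2 fold change -4.67 ± 0.33, adjusted p = 1.33e-11). E2f8, a repressor of the E2F family that is made in S phase, was at 0.589, 0.572 and 2.37 CPM against 47.9, 56.04 and 55.96 CPM (log2 fold change -5.35 ± 0.35, adjusted p = 4.07e-12, and -6.43 without 41BB+ replicate 3). Cdkn1a, the kinase inhibitor p21, was lower too, at 0.589, 0.858 and 1.05 CPM against 31.9, 44.7 and 45.5 CPM (log2 fold change -5.47 ± 0.50, adjusted p = 2.83e-09). Cdkn1b, the inhibitor p27 of resting cells, was higher at 45.95, 42.9 and 46.5 CPM against 20.1, 22.7 and 24.4 CPM with 114 to 123 CPM at rest (log2 fold change 1.07 ± 0.15, adjusted p = 3.52e-06).

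Interleukin-2 and some genes of its receptor and signaling were lower. Il2 (GRCm38 chr3:37120523-37125959), the T cell growth factor, was at 0.295, 0.572 and 0.526 CPM in unstimulated 41BB+ cells and at 39.6, 65.97 and 69.9 CPM in activated 41BB- cells, with 0 counts in the 3 resting libraries. The 41BB+ libraries held 1 or 2 counts each. The fitted difference was the largest drop among called genes with non-overlapping libraries and a mean of 5 CPM or more (log2 fold change -6.80 ± 0.77, adjusted p = 7.07e-06). Predicted genes, pseudogenes, small RNAs and receptor segments were left out of that ranking. Il2ra, the high-affinity receptor chain, was at 72.8, 51.8 and 44.7 CPM against 697, 759.7 and 747 CPM and 2.79, 4.21 and 3.02 CPM at rest (log2 fold change -3.65 ± 0.23, adjusted p = 2.21e-09). The fitted level was 12.5-fold lower in the 41BB+ than in the activated cells, and every 41BB+ library was above every resting library. Cish, which encodes a feedback inhibitor induced through STAT5, was at 6.19, 2 and 5.26 CPM against 115, 123 and 101 CPM with 2.41 to 5.19 CPM at rest (log2 fold change -4.58 ± 0.47, adjusted p = 1.53e-06). Socs2, a further inhibitor of that family, had 0 counts in the 41BB+ libraries and 71 in the activated ones, at least 23.2-fold lower against a limit of 3 counts over the group. The receptor beta chain Il2rb did not differ by 2-fold, at 193, 194 and 213 CPM and 252, 263 and 219.6 CPM (interval -0.53 to 0.08). Stat5a, a transcription factor gene of this receptor's pathway, was lower within 2-fold at 120.5, 114 and 122 CPM against 192, 166 and 163 CPM (log2 fold change -0.48 ± 0.12, adjusted p = 0.00431).

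Among other cytokine and chemokine genes, more were lower than higher. Of 18 cytokines 8 were lower, 5 past 2-fold, 6 were within 2-fold and 2 were higher (1 in each fit without 1 library other than 41BB+ replicate 1). Of 6 chemokines 4 were lower, all past 2-fold, and 1 was higher, Ccl5, at 11.8, 10.9 and 37.6 CPM against 5.74, 2.84 and 9.09 CPM (log2 fold change 1.86 ± 0.52, adjusted p = 0.0129). Without 41BB+ replicate 3 the call was lost (0.96, adjusted p = 0.152), and so it was without activated replicate 1 or 2 (adjusted p = 0.0563 and 0.0797). Ifng, the effector cytokine interferon gamma, was at 4.42, 1.43 and 2.63 CPM against 12.1, 19.4 and 17.04 CPM (log2 fold change -2.45 ± 0.66, adjusted p = 0.00816). Tnf, another effector cytokine, was at 38, 36.04 and 28.9 CPM against 91.3, 117 and 134 CPM (log2 fold change -1.67 ± 0.21, adjusted p = 3.91e-07). Il3, a further cytokine of activated T cells, had 0 counts in the 41BB+ libraries and 58 in the activated ones, at least 18.99-fold lower. The macrophage chemoattractants Ccl3 and Ccl4 were at 8.25, 7.72 and 9.47 CPM and 16.5, 20.6 and 22.1 CPM in the 41BB+ cells. Their levels in activated cells were 102, 108 and 130.1 CPM and 141, 159 and 197 CPM (log2 fold change -3.66 ± 0.32, adjusted p = 1.99e-08 for Ccl3 and log2 fold change -3.00 ± 0.23, adjusted p = 4.22e-11 for Ccl4). Ccl3 had no count in the resting libraries, so the 41BB+ cells held an intermediate level. Xcl1, a chemokine for cross-presenting dendritic cells, was not called, at 166, 127 and 142 CPM against 107, 92.9 and 143 CPM with 2.11 to 4.34 CPM at rest. Its ranges overlapped and its interval of 0.09 to 0.77 lay within 2-fold.

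Receptors and transcription factors of early activation were more often lower than higher, and members of each list went both ways. Among 26 surface receptors of activation and costimulation 11 were lower, 7 higher and 8 within 2-fold. Tfrc, the transferrin receptor of growing cells, was at 136, 141 and 126 CPM against 746, 861 and 752 CPM (log2 fold change -2.48 ± 0.17, adjusted p = 1.52e-10). Tnfrsf4, which encodes the costimulatory receptor OX40, was at 7.07, 6.01 and 6.05 CPM against 59.4, 55.8 and 65.05 CPM (log2 fold change -3.17 ± 0.26, adjusted p = 1.83e-10). Both were below the activated cells in each library, as was Cd69, at 105, 95.5 and 64.4 CPM against 202, 213 and 240.3 CPM (log2 fold change -1.25 ± 0.19, adjusted p = 3.77e-05). Higher in the 41BB+ cells was Crtam, an adhesion receptor of cytotoxic T cells, at 285, 279 and 274 CPM against 78.2, 58.6 and 65.6 CPM and 47.6 to 66.7 CPM at rest (log2 fold change 2.12 ± 0.16, adjusted p = 6.11e-11). Slamf6, a receptor of the SLAM family, was likewise higher (log2 fold change 1.56 ± 0.13, adjusted p = 1.64e-10).

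Irf4, a transcription factor gene induced in proportion to receptor signal, was at 147, 132 and 107 CPM in unstimulated 41BB+, 818, 869 and 841 CPM in activated 41BB- and 37.2, 24.6 and 18.1 CPM in resting cells (log2 fold change -2.65 ± 0.16, adjusted p = 1.02e-11). The 41BB+ level lay between the other 2 with no overlap. Bhlhe40, a regulator of cytokine production, was at 2.36, 6.58 and 5.26 CPM against 142, 151 and 134 CPM (log2 fold change -4.83 ± 0.60, adjusted p = 4.74e-05). Rel and Nfkb1, NF-kB subunits, were lower with log2 fold changes of -1.34 and -0.96 (adjusted p = 3.62e-09 and 8.06e-08), and 11 of 28 NF-kB genes were lower and 3 higher. Nfatc1 was within 2-fold (-0.09 to 0.31). Of 26 activation-induced transcription factor genes 10 were lower (38.5%) and 4 higher (15.4%), beside 13.4% and 11.7% over all genes. Of 26 early response genes of the AP-1, EGR and NR4A families 8 were lower (5 without 41BB+ replicate 1) and 3 higher (5 with the replicate block, 7 with the 6 libraries fitted alone). The shares of higher members, 10.7% for NF-kB and 11.5% for early response genes, were near the 11.7% over all genes. Those of lower members were 39.3% and 30.8%, beside 13.4% over all genes. Against unstimulated 41BB- cells, the early response list had a median of -1.48 in unstimulated 41BB+ cells (4 up, 15 down). In activated 41BB- cells it was -0.77 (6 up, 16 down), so both groups lay below rest in median. Nr4a3 was at 83.95, 113 and 102 CPM against 432, 525 and 431 CPM (log2 fold change -2.15 ± 0.19, adjusted p = 1.19e-08), whereas Nr4a1, at 77.2, 85.5 and 66.8 CPM against 113, 99.8 and 124 CPM, did not pass the threshold (log2 fold change -0.49 ± 0.36, adjusted p = 0.36). The last difference passed with the 6 libraries fitted alone (adjusted p = 0.00821).

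Eomes and Myb were the transcription factor genes with the largest increases among those named. Eomes (GRCm38 chr9:118478212-118486132), a T-box factor of memory and cytotoxic T cells, was at 568, 606 and 531 CPM in unstimulated 41BB+ cells and at 9.57, 12.3 and 7.95 CPM in activated 41BB- cells, with 52.4, 55.8 and 61.8 CPM at rest. The activated cells were below the resting cells and the 41BB+ cells were above both. The increase was the largest among called genes with non-overlapping libraries and a mean of 5 CPM or more (log2 fold change 5.88 ± 0.33, adjusted p = 5.36e-10, a fitted 58.98-fold). That ranking left out predicted genes, pseudogenes, small RNAs and receptor segments. Myb, a factor of stem-like CD8 T cells, was at 385, 357 and 385 CPM against 22.7, 27.4 and 22.7 CPM, with 62.9, 62.9 and 48.6 CPM at rest (log2 fold change 4.01 ± 0.26, adjusted p = 1.68e-09). Its order over the 3 groups was the same as that of Eomes. In 41BB+ cells after 24 h with beads, Eomes was at 17.9, 31.3 and 9.97 CPM and Myb at 79.9, 61.8 and 54.2 CPM. Both were far below the unstimulated 41BB+ level. Myb was still above every activated 41BB- library there and overlapped the resting level, while Eomes overlapped the activated 41BB- level.

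Tbx21, which encodes the T-box factor T-bet of effector cells, was lower, at 10.3, 12.3 and 14.99 CPM against 28.4, 52.5 and 49.99 CPM (log2 fold change -1.73 ± 0.25, adjusted p = 3.58e-06). Bcl6, a repressor linked to memory formation, was higher at 66.3, 45.2 and 57.6 CPM against 12.4, 6.15 and 12.5 CPM (log2 fold change 2.52 ± 0.30, adjusted p = 2.15e-07). Tcf7, the gene of TCF-1, was higher too, at 1015, 1125 and 1103 CPM against 528, 499.6 and 418 CPM with 1198 to 1293 CPM at rest (log2 fold change 1.23 ± 0.12, adjusted p = 2.86e-09). Pou2af1, a coactivator of octamer factors best known from B cells, was at 104, 94.97 and 115 CPM against 5.42, 12.5 and 8.52 CPM and 3.099, 6.16 and 11.5 CPM at rest (log2 fold change 3.60 ± 0.35, adjusted p = 1.91e-08). Cd22, a B cell receptor gene, had 75 counts in the 41BB+ and 1 in the activated libraries, a ratio of 76.3 (exact 95% counting interval 13.3 to 3055), while Ms4a1 had 3 counts over the 3 41BB+ libraries and Cd79a 0. Of 6 B cell markers tested 1 was higher and 1 lower (2 higher without activated replicate 1), and the summed list was at 109.9 to 117 CPM in 41BB+, 133 to 172 CPM in activated and 247 to 272 CPM in resting 41BB- libraries. The part of these markers in the level of Pou2af1 was not tested. Sox4, a transcription factor gene of immature lymphocytes, was higher as well (log2 fold change 3.48 ± 0.44, adjusted p = 5.24e-07).

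**Figure D4:**
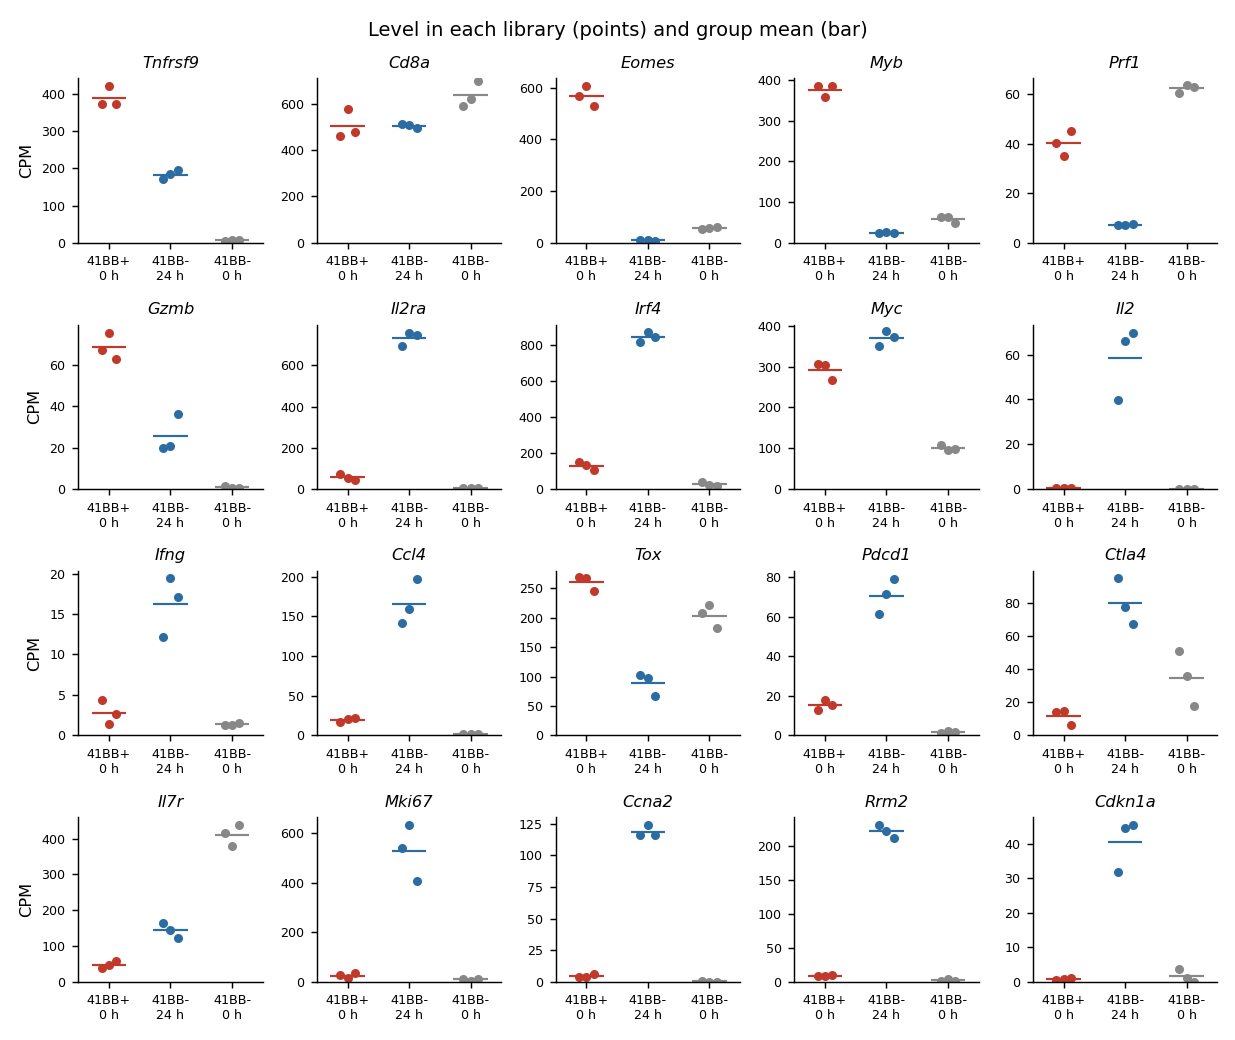
CPM of 20 genes in each library (points) and group mean (bar) in unstimulated 41BB+ (red), 24 h activated 41BB- (blue) and unstimulated 41BB- cells (grey), 3 libraries each, every vertical axis starting at 0. Eomes and Myb are high in unstimulated 41BB+ cells alone, Cd8a overlaps between red and blue, Myc is lower in red than in blue in each library, and Il2, Mki67, Ccna2, Rrm2 and Cdkn1a are high in activated cells alone.

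Cytotoxic genes were more often higher than lower in the 41BB+ cells. Of 22 granule genes 9 were higher and 3 lower, with a median of 0.57. Prf1, the pore-forming perforin, was at 40.4, 35.2 and 44.97 CPM against 7.02, 7.33 and 7.67 CPM, with 60.4 to 63.5 CPM at rest (log2 fold change 2.51 ± 0.34, adjusted p = 1.68e-06), so that the activated cells had the least. Gzmb, granzyme B, was at 67.2, 75.5 and 62.6 CPM against 19.8, 20.6 and 36.1 CPM and 0.603 to 1.24 CPM at rest (log2 fold change 1.49 ± 0.40, adjusted p = 0.0139), a call that was lost when replicate 1 or 2 of the activated cells (adjusted p = 0.0653 and 0.0722) or replicate 2 of the 41BB+ cells (0.0513) was left out. Gzma had 0 counts in the activated libraries and 39 in the 41BB+ libraries, at least 13.2-fold higher, being at 0.884, 1.43 and 8.15 CPM, highest in replicate 3, and it lost its call without that library (adjusted p = 0.0527). Nkg7, a granule membrane protein gene, did not differ by 2-fold (0.01 to 0.64).

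Inhibitory receptors were not raised together. Of 23 genes of coinhibition and exhaustion 9 were lower (39.1%) and 3 higher (13.0%), beside 13.4% and 11.7% over all genes. Pdcd1, the gene of PD-1, was at 12.7, 17.7 and 15.2 CPM in unstimulated 41BB+ cells, 61.6, 71.4 and 79.2 CPM in activated 41BB- cells and 1.24, 2.27 and 1.51 CPM at rest (log2 fold change -2.15 ± 0.23, adjusted p = 2.56e-08). Lag3 was at 20.6, 12.01 and 14.5 CPM, 57.8, 61 and 57.1 CPM and 0.31, 0 and 0.603 CPM (log2 fold change -1.84 ± 0.21, adjusted p = 9.73e-08). Both had an intermediate level in the 41BB+ cells. Ctla4 was below both other groups in mean, at 14.1, 14.9 and 6.05 CPM against 94.8, 77.5 and 67.04 CPM and 50.8, 35.98 and 17.5 CPM at rest (log2 fold change -2.72 ± 0.34, adjusted p = 2.48e-05). Tox, a factor of exhausted and of memory cells, was higher at 269, 268 and 246 CPM against 102, 97.4 and 67.3 CPM, and at 208, 221 and 182 CPM at rest (log2 fold change 1.61 ± 0.27, adjusted p = 0.000288). Cd160 was higher too, at 68.6, 59.5 and 52.3 CPM against 15, 20.1 and 25.6 CPM (log2 fold change 1.63 ± 0.26, adjusted p = 2.53e-05).

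More genes of the resting state were higher than lower in the 41BB+ than in the activated cells. Most were below rest in both groups. Of 35 naive and quiescence genes 18 were higher and 5 lower (3 without 41BB+ replicate 1 or 2 or activated replicate 1 or 2), with a median of 0.57. Their medians against rest were -1.40 in unstimulated 41BB+ (1 up, 25 down) and -1.98 in activated 41BB- cells (2 up, 30 down). Ms4a4b, a membrane protein gene of naive T cells, was at 443, 419 and 442 CPM against 108, 115 and 93.5 CPM with 432 to 512 CPM at rest (log2 fold change 2.10 ± 0.15, adjusted p = 5.25e-11). Ramp1, a receptor accessory protein gene, was at 43.01, 43.5 and 51.5 CPM against 4.47, 6.38 and 5.96 CPM with 42.1 to 63.3 CPM at rest (log2 fold change 3.08 ± 0.29, adjusted p = 1.88e-09). For both genes the ranges of 41BB+ and resting cells overlapped and the activated cells were below. Il7r, the receptor of the survival cytokine interleukin-7, went against the list, at 38, 46.1 and 57.9 CPM against 163, 144 and 122 CPM and 378 to 439 CPM at rest (log2 fold change -1.53 ± 0.23, adjusted p = 9.27e-05). Ccr7 was alike at 125, 131 and 150.4 CPM and 172, 147 and 146 CPM (interval -0.43 to 0.19). Of 6 GIMAP genes, GTPases of lymphocyte survival, 5 were higher, 3 of them past 2-fold, as for Gimap6 at 278, 302 and 287 CPM against 71.2, 72.1 and 92.3 CPM (log2 fold change 1.95 ± 0.17, adjusted p = 2.9e-09).

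Homing receptors were among the genes that stood furthest above the activated cells. Of 28 chemokine receptor, integrin and egress genes 15 were higher (9 without 41BB+ replicate 3), 6 past 2-fold, and 6 lower. The list's medians against rest were -0.54 in unstimulated 41BB+ and -1.93 in activated 41BB- cells, so both groups lay below rest in median. Cxcr4, the receptor of CXCL12, was at 54.2, 44.9 and 39.98 CPM against 3.51, 1.89 and 5.96 CPM with 52.2 to 66.8 CPM at rest (log2 fold change 3.69 ± 0.35, adjusted p = 8.12e-09). Ccr9, a gut and thymus homing receptor, was at 59.8, 62.4 and 69.7 CPM against 6.06, 7.80 and 3.98 CPM (log2 fold change 3.47 ± 0.39, adjusted p = 1.1e-06). Among 31 genes of the T cell receptor complex and its proximal signaling, 24 were higher, 3 lower and 21 within 2-fold, as for Lck at 444, 460.3 and 493 CPM against 263, 271 and 299.7 CPM (log2 fold change 0.81 ± 0.10, adjusted p = 2.15e-07). Against rest this list had a median of -0.24 in unstimulated 41BB+ cells (3 up, 15 down) and -0.70 in activated 41BB- cells (1 up, 25 down). Of the memory-phenotype and NK-type receptors, 9 of 21 were higher and 3 lower. Klrd1, the CD94 chain, was at 41.2, 48.6 and 62.3 CPM against 16.3, 12.1 and 13.1 CPM with 68.2 to 78.7 CPM at rest (log2 fold change 1.96 ± 0.34, adjusted p = 0.0003).

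Interferon-induced genes were more often higher than lower in the 41BB+ cells. Of 43 tested 16 were higher, 5 past 2-fold, and 5 lower, 3 past 2-fold, with 11 within 2-fold and a median of 0.69. The share of higher members was 37.2%, beside 11.7% over all genes. That of lower members, 11.6%, was near the 13.4% over all genes. Against rest the median was -1.25 in unstimulated 41BB+ cells (0 up, 31 down) and -1.96 in activated 41BB- cells (2 up, 35 down). An interferon-stimulated response element (GAAA and GAAA with any 2 bases between, on either strand) was found in the RefSeq window of 19 of the 29 tested members with an entry (65.5%) and of 287 of 8912 tested autosomal genes (3.22%). Members of either direction hold it, as the windows of Ifit1 (chr19:34640639-34640938, plus strand, 2 matches) and Gbp2 (chr3:142620413-142620712, plus strand, 1 match) show, with the match in capitals.
Ifit1: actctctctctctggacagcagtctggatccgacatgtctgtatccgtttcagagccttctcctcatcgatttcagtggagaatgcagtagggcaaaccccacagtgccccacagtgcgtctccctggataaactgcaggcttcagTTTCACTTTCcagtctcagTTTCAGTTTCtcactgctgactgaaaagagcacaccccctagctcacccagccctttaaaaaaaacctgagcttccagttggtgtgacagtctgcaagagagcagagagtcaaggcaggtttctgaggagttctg
Gbp2: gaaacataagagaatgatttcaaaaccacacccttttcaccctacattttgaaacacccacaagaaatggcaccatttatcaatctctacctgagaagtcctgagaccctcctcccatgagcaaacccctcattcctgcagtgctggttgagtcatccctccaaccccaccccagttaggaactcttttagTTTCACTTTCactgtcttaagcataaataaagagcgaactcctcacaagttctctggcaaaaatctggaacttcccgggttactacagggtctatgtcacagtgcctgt

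Ifit1, an antiviral RNA-binding protein gene, was at 5.30, 7.44 and 6.84 CPM in unstimulated 41BB+ cells against 0.638, 1.66 and 0.852 CPM in activated 41BB- cells, with 22.6 to 32.7 CPM at rest (log2 fold change 2.62 ± 0.53, adjusted p = 0.000425). Gbp2, a guanylate-binding protein gene that interferon gamma induces, was at 23.9, 29.2 and 31.8 CPM against 139.8, 157 and 146 CPM with 66.5 to 89.9 CPM at rest (log2 fold change -2.31 ± 0.28, adjusted p = 5.98e-06). The 41BB+ level of Ifit1 was thus between rest and activation, and that of Gbp2 below both. Mx1, an antiviral GTPase gene, held 97 counts in the 41BB+ and 3 in the activated libraries, a ratio of 32.9 (exact 95% counting interval 10.9 to 162). Iigp1, an immunity-related GTPase gene that interferon gamma induces, was lower, at 1.47, 4.29 and 5 CPM against 68.6, 73.8 and 68.5 CPM with 10.9 to 19.8 CPM at rest (log2 fold change -4.19 ± 0.31, adjusted p = 4.49e-11). Ifi211 was lower as well at 0, 0.858 and 0.263 CPM against 18.2, 21.8 and 14.2 CPM (log2 fold change -5.40 ± 0.59, adjusted p = 3.63e-08, and -6.69 without 41BB+ replicate 2), with the limit that reads can be shared with close copies in its family.

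Further large differences were these. Cpd, a carboxypeptidase gene, was at 5.01, 5.72 and 5.26 CPM against 247, 274 and 199.7 CPM with 1.62 to 4.34 CPM at rest (log2 fold change -5.42 ± 0.23, adjusted p = 4.29e-16). Plscr1, a phospholipid scramblase gene, was at 1.77, 1.43 and 1.58 CPM against 44.4, 44.2 and 41.5 CPM (log2 fold change -4.67 ± 0.36, adjusted p = 5.48e-11). Lif, a cytokine of the interleukin-6 family, was at 0.884, 0.286 and 1.58 CPM against 25.2, 28.1 and 29.5 CPM (log2 fold change -4.77 ± 0.47, adjusted p = 5.79e-09, and -5.49 without 41BB+ replicate 3). Sema4a, a semaphorin gene, was higher at 54.8, 72.95 and 59.2 CPM against 3.19, 6.86 and 4.83 CPM, with 85.8 to 119 CPM at rest (log2 fold change 3.67 ± 0.32, adjusted p = 4.32e-09). Among 26 genes of the BCL2 family and cell death, 8 were lower and 4 higher (1 without 41BB+ replicate 1 or activated replicate 3, 2 without activated replicate 1 or 2). The share of higher members, 15.4%, was near the 11.7% over all genes, and 30.8% were lower, beside 13.4% over all genes. Bcl2l1, the survival protein gene of BCL-XL, was at 59.5, 52.6 and 38.4 CPM against 311, 352 and 351 CPM with 19.9 to 24.2 CPM at rest (log2 fold change -2.69 ± 0.17, adjusted p = 1.61e-12).

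The bead response was also read from genes chosen on other libraries, those called and at least 2-fold changed between 41BB- cells of 72 h and 0 h, none of which enters the comparison. Of 2042 such genes (16.1% of those tested) higher after 72 h with beads, 886 (43.4%) were lower and 46 higher (28 without 41BB+ replicate 3, 25 and 24 without activated replicates 1 and 2) in unstimulated 41BB+ than in 24 h activated 41BB- cells, and 619 (30.3%) had intervals within 2-fold, at a median log2 fold change of -0.58. Of 1512 genes (11.9%) lower after 72 h with beads, 448 (29.6%) were higher (286 without 41BB+ replicate 1, 292 and 286 without activated replicates 1 and 2), 42 lower and 323 within 2-fold, at a median of 0.80. A further choice took genes that differed at least 2-fold between 41BB+ and 41BB- cells at 72 h. Of 230 (1.81%) higher in 41BB+ cells at that time, 75 (32.6%) were higher and 15 lower here (9 without activated replicate 1). Of 409 (3.22%) lower at that time, 125 (30.6%) were lower and 17 higher here (9 to 11 in fits without 1 library).

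Markers of other cells were measured beside these results. Of 7 markers of CD4 helper and regulatory T cells tested 4 were lower, 3 past 2-fold, and 1 was higher. Their summed level was 93.4 to 119.6 CPM in 41BB+, 873 to 915 CPM in activated and 51.0 to 77.2 CPM in resting 41BB- libraries, of which Il2ra and Ctla4, given above, held most. The defining genes were low, Cd4 having 1 count over the 3 unstimulated 41BB+ libraries and 6 over the activated ones, and Foxp3 31 and 22. Of 4 NK cell markers tested 2 were higher, both past 2-fold, Eomes and Gzma (1 without 41BB+ replicate 3). Their summed level was 618 to 684 CPM in 41BB+, 67.3 to 85.5 CPM in activated and 143 to 166 CPM in resting 41BB- libraries, Eomes holding most of it in the 41BB+ libraries. Of the defining NK genes, Ncr1 had 6 counts over the 41BB+ libraries and 3 over the activated ones, Klrb1c 1 and 1, Tyrobp 6 and 4, and Klrb1b 0 in both.

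Of 11 dendritic cell markers tested 7 were higher in the 41BB+ libraries (4 without activated replicate 1 or 3), and the summed level of the marker list was 150.2 to 238 CPM there, 43.7 to 56.5 CPM in activated and 150.6 to 183.5 CPM in resting 41BB- libraries. H2-Ab1, an MHC class II chain gene, was at 7.07, 12.01 and 31.3 CPM against 0.957, 2.13 and 0.568 CPM, highest in replicate 3 (log2 fold change 3.78 ± 0.98, adjusted p = 0.00839, 2.90 without that library and 4.43 without activated replicate 2), and Itgax, the gene of CD11c, at 18.3, 6.29 and 24.7 CPM against 0, 1.42 and 1.14 CPM (log2 fold change 4.21 ± 0.91, adjusted p = 0.00121). Of the defining genes, Siglech had 1 count, Xcr1 9 and Clec9a 26 over the 41BB+ libraries. Summed monocyte, macrophage and neutrophil markers were at 19.7 to 30.0 CPM in 41BB+ and 0.638 to 16.8 CPM in activated libraries, with Itgam and S100a8 at 0 counts in the 41BB+ libraries. Of 2 stromal and endothelial markers tested 1 was higher, Pecam1, an adhesion receptor gene also of naive T cells, at 131, 101 and 114 CPM against 43.4, 35.9 and 34.6 CPM with 206 to 261 CPM at rest (log2 fold change 1.66 ± 0.20, adjusted p = 1.28e-06). That list summed to 109.8 to 146 CPM in 41BB+, 37.6 to 45.9 CPM in activated and 215 to 266 CPM in resting 41BB- libraries, with Ccl19 and Ccl21a at 0 counts. Summed levels in 41BB+ and activated libraries were 34.98 to 35.5 and 32.6 to 37.2 CPM for plasma cell markers. For gamma-delta and innate-like T cell markers they were 10.3 to 13.9 and 26.9 to 29.0 CPM, and 2.00 to 7.66 and 1.14 to 2.60 CPM for erythroid and platelet markers. The part of these markers in the differences above was not tested.

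Xist was at 395, 132 and 0 CPM in 41BB+ replicates 1 to 3 and at 189, 124 and 0 CPM in activated replicates 1 to 3, so replicate 3 had none in either group.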

How the data were processed

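Per the labels' protocols, a stranded kit for total RNA was used. The submitters' processing notes name FastQC 0.11.9, Trimmomatic 0.38, HISAT2 2.2.1 and featureCounts, with GRCm38 as the build. The deposited table holds raw whole-number counts per Ensembl gene and library. No source used here gives the annotation release, the strand setting or how multi-mapped reads were treated, so overlapping or antisense genes and close copies (Amd1 and Amd2, histones, ribosomal protein genes, the Ifi211 family) are uncertain. Library size and composition were set with TMM factors, which makes levels relative to the bulk of genes in a library and not to the cell.

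All 18 libraries were fitted together in edgeR 4.0.16 (R 4.3.3) with a quasi-likelihood fit, 1 mean per group and no replicate block. Genes passed filterByExpr (minimum count 10, minimum total 15), 13150 in all, and p-values were adjusted over all of them (Benjamini-Hochberg, threshold 0.05). The standard error is the log2 fold change divided by the square root of F. Differences past 2-fold came from glmTreat, and 95% intervals from limma 3.58.1 (voom). Library distances used log2 CPM with a prior count of 2. Alternatives were DESeq2 1.42.0, other scalings, no filter, the 6 libraries alone, voom with quality weights, the replicate block and leaving out each library. On simulated data with 12685 genes made like this comparison, 70.1% of 67 genes changed 2-fold and 100% of 66 changed 4-fold were called. Of 67 genes changed 1.41-fold, 22.4% were called. The test past 2-fold called 50 of the genes changed 4-fold and 0 of those changed 2-fold. Of 12485 unchanged genes 0.0881% were called and 65.1% had intervals within 2-fold. The changed genes were drawn from those above a minimum expected count, so their shares do not cover genes of fewer counts. Far fewer genes were changed than were called in the real data.

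Members and gene lists were chosen with earlier results of these data known. Named genes are the sorting and lineage markers, the 12 largest called changes in each direction with non-overlapping libraries and a mean of at least 5 CPM (no predicted genes, pseudogenes, small RNAs or receptor segments), and per list up to 4 called members of smallest adjusted p and 2 of narrowest interval within 2-fold. Named too are fixed polyamine and activation genes, and the 4 of smallest adjusted p in each set chosen on other libraries. Asns, Ccl5, Cd160, Cdc20, Cdc25b, Cdkn1b, Ddx21, Gbp2, Ifit1, Klrd1, Pcna, Rpa3, Shmt2, Tox, Ube2c and Uqcrc1 were named after their values were seen. Gene positions and symbols are from GENCODE M21 on GRCm38. A gene with 0 counts in a group was given a fold against 3 counts over the group, and such limits and intervals of counts cover counting error only. Some genes that the rule names are not reported here.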

Additional observations from a re-analysis of the deposited data

How the results depend on the processing

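Leaving out 1 library at a time gave 916 to 1113 genes higher in unstimulated 41BB+ cells, against 1490 with all 6, and 1599 to 1847 lower, against 1696. Requiring the 95% interval to lie within 1.5-fold left 2826 genes in place of 6277. With library totals alone as scaling, 1264 genes were higher and 1989 lower, and with no filter on low counts 1168 and 1857. The median log2 fold change over all genes stayed between -0.04 and 0.05 in these settings. Of 284 named genes tested, 268 to 284 kept their side of the threshold and their direction in each alternative, and none reversed with a call. The replicate numbers are experiment numbers in the labels. Over autosomal genes, same-numbered libraries of the 2 groups did not deviate together from their group means, with correlations of -0.08, 0.01 and -0.22. With the replicate number as a block, 1488 genes were higher and 1699 lower. Xist, which is not autosomal, did follow the replicate number, being highest in replicate 1 and 0 in replicate 3 of both groups. Depth of 3133910 to 4229487 counts a library left 5884 genes (46.4%) placed on neither side of 2-fold.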
